A study of Mus musculus with 4 samples.

Results

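The 38 genes described here encode proteins of the presynaptic terminal: proteins of the vesicle membrane, vesicular glutamate transporters, SNARE proteins and complexins, calcium sensors, proteins of the active zone, and proteins of vesicle endocytosis. They were chosen by name as the core of the release machinery, and all probes carrying 1 of the 38 gene names were taken. These were 81 of the 56605 probes on the array, and the 38 genes stand among 24787 genes with a name. The study compared MSA Tg mice (transgenic, Tg) with wild-type (WT) mice at 24 weeks of age, in spinal cord and in a sample of brainstem/cerebellum. Each combination of genotype and tissue was measured on 1 Agilent array in 1 colour, which gives 4 groups: Tg spinal cord, Tg brainstem/cerebellum, WT spinal cord and WT brainstem/cerebellum. All 4 groups share a mixed strain background of C57BL/6, 129 and C3H. The labels spell out neither MSA nor the PLP that opens each sample title, and they name no transgene, no promoter and no number of animals behind an array.

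A nerve terminal stores transmitter in synaptic vesicles. Transporters fill the vesicle, scaffold proteins of the active zone dock it at the release site and prime it, and SNARE proteins zip up to pull the vesicle and plasma membranes together. Complexins clamp and then help this step, synaptotagmins trigger it when calcium enters, and dynamin with its partners retrieves the membrane afterwards. The transcripts of these genes are made in the neuron's cell body, so in bulk tissue they report on neurons of that tissue, including neurons that send their axons elsewhere. Fewer neurons and less RNA per neuron cannot be told apart in such samples.

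Levels are log2 signals, each set relative to its array by subtracting the array's own 75th percentile, so a level of 0 is the brightness of the array's 75th percentile. A difference of 1 is 2-fold. Where a gene had several probes (24 of the 38), its brightest probe (by the mean level) represents it. Of the 38 genes, 37 were well above background on all 4 arrays, and between 28 and 32 of them lay above the 75th percentile on each array. With 1 array a group no test was possible, and no value below has a replicate check. Probes spotted 10 times on each array give the only error at hand: 2 such spots differed with an SD of 0.091 (log2) at levels above 2, and this grew to 0.193 between levels of -4 and -2 and to 0.74 below -4. It leaves out all variation between animals, extractions and hybridisations.

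The 75th percentile lay at a signal of 414 on the Tg and 686 on the WT spinal cord array, and at 463 on the Tg and 445 on the WT brainstem/cerebellum array. The WT spinal cord sample sat on a slide of its own, apart from the slide that held the remaining arrays. Slide and genotype therefore cannot be told apart in spinal cord, nor slide and tissue in WT mice, while the genotype comparison in brainstem/cerebellum and the tissue comparison in Tg mice each lie within 1 slide. Marker genes fitted the tissue labels: 12 of 12 trunk Hox genes were above background on each spinal cord array, against 6 on the Tg and 4 on the WT brainstem/cerebellum array. The cerebellar Purkinje cell gene Pcp2 stood at -3.04 in Tg spinal cord and at 6.26 in Tg brainstem/cerebellum, and at -1.84 in WT spinal cord and 6.16 in WT brainstem/cerebellum.

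The first comparison asks how the release machinery of Tg mice differed from that of WT mice in each tissue. In spinal cord, most of the 38 genes were lower on the Tg array by less than 2-fold. The median difference was -0.66, with an SD over genes of 0.61, for the 37 genes above background on both arrays. All named genes had a median of -0.05, and those with a mean level above the 75th percentile, as bright as most of the release genes, had -0.09. In all, 33 of the 37 release genes were lower in Tg spinal cord, where 53.7% of all named genes and 57.4% of the bright ones were lower. A difference of at least 2-fold was rarer: 3 of 37 genes were lower by that much (Syt7, Slc17a8 and Syn3), beside 6.32% of all named genes. Syngr1 alone was higher, at the probe used, beside 8.52%. The share past 2-fold thus lay close to that of genes at large, and the shift shows at a smaller threshold. At 1.5-fold, 21 of 37 genes were lower, against 17.6% of all named genes and 15.2% of the bright ones.

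In brainstem/cerebellum the same genes differed little. None of the 38 was 2-fold lower in Tg, beside 0.273% of all named genes, and none was 2-fold higher, beside 2.74%. The median difference was -0.18, against -0.06 for all named genes and -0.10 for the bright ones, and 29 of the 38 genes were lower, where 60.3% of all named and 69.2% of the bright genes were. The differences ran from -0.46 (Syt3) to 0.69 (Syngr1). At 1.5-fold, Syngr1 was higher, beside 6.21% of all named genes. In both tissues, 28 of the 37 genes measured on all arrays (75.7%) were lower in Tg, as were 41.2% of all named genes.

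**Figure D1:**
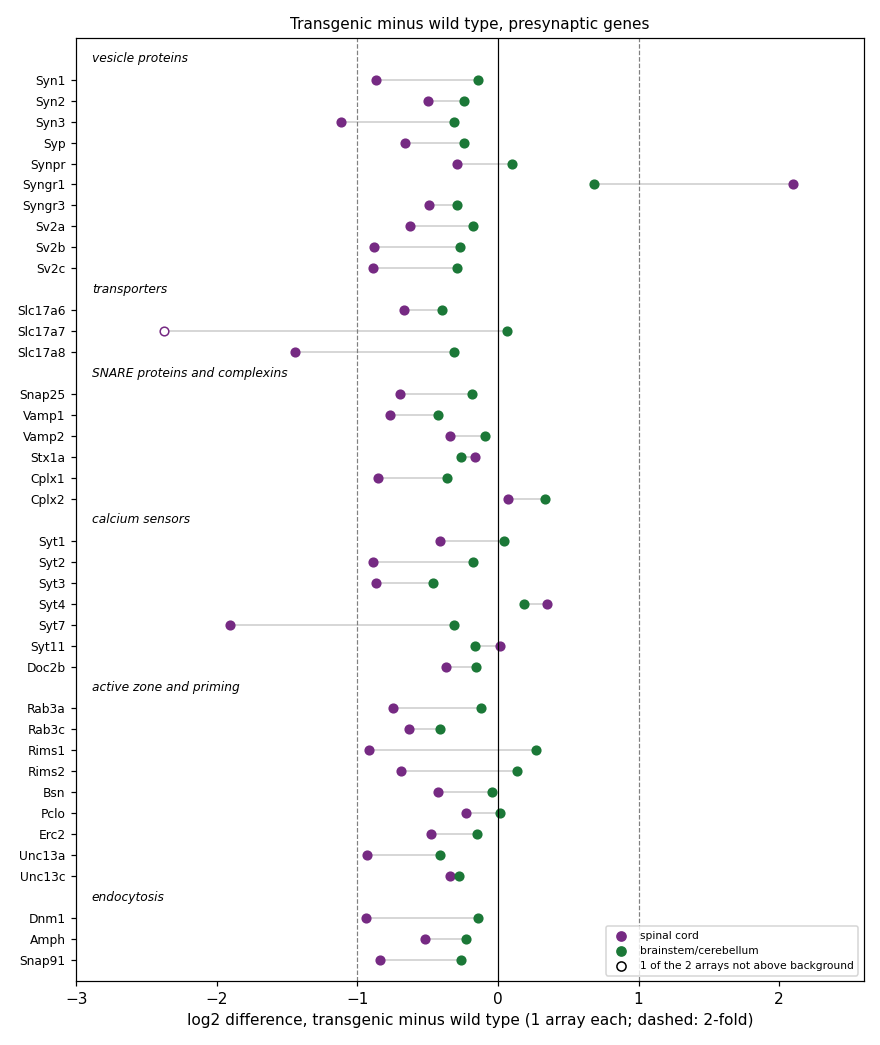
Difference between Tg and WT for each of the 38 genes, on the log2 scale (horizontal axis), in spinal cord (purple) and brainstem/cerebellum (green), with 1 array behind each value, genes grouped by role and dashed lines at 2-fold. Most purple points lie left of the green ones, Syngr1 stands alone on the right at 2.10 in spinal cord, and the open point is Slc17a7, which was not above background in Tg spinal cord.

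**Figure D2:**
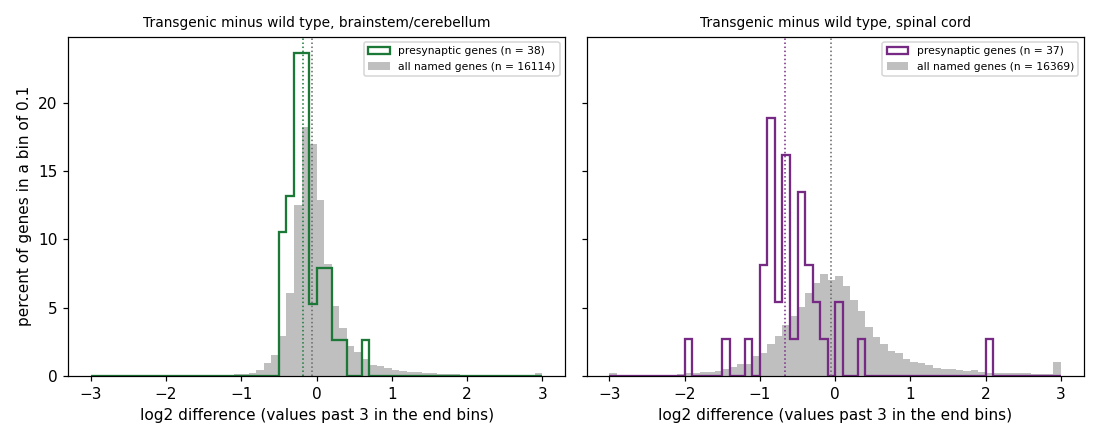
Share of genes (vertical axis, percent) by the log2 difference between Tg and WT (horizontal axis, bins of 0.1), for the release genes (coloured outline) and all named genes above background on both arrays (grey), with dotted lines at the medians. In brainstem/cerebellum the outline lies over the grey peak, with medians of -0.18 and -0.06, and in spinal cord it is displaced to the left, with medians of -0.66 and -0.05.

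Among the vesicle proteins, 9 of 10 were lower in Tg spinal cord, with a median of -0.64, and 8 of 10 in Tg brainstem/cerebellum, with a median of -0.24. The synapsins, phosphoproteins that hold vesicles in the reserve pool, were among them. Syn3 stood at -0.77 in Tg and 0.35 in WT spinal cord, a difference of -1.12 or 2.17-fold lower, and at -0.37 in Tg and -0.05 in WT brainstem/cerebellum. Its probes disagreed: the 3 others above background on all 4 arrays gave 0.68, -0.06 and -0.31 in spinal cord, and with normexp background correction and quantile normalization the brightest probe gave -0.91, short of 2-fold. Syn1 was at 3.31 in Tg and 4.17 in WT spinal cord and at 3.83 in Tg and 3.98 in WT brainstem/cerebellum. At the brightest probe of both genes WT spinal cord was the highest and Tg spinal cord the lowest of the 4 arrays. Syp, the abundant vesicle membrane protein synaptophysin, differed by -0.66 in spinal cord and -0.24 in brainstem/cerebellum. Syn2 and Syngr3 each had -0.49 in spinal cord, and -0.24 (Syn2) and -0.29 (Syngr3) in brainstem/cerebellum.

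The SV2 proteins are vesicle glycoproteins, and Sv2a encodes the target of the drug levetiracetam. Sv2b stood at 1.25 in Tg and 2.12 in WT spinal cord and at 2.20 in Tg and 2.47 in WT brainstem/cerebellum. Sv2c stood at 3.31 in Tg and 4.20 in WT spinal cord and at 3.05 in Tg and 3.35 in WT brainstem/cerebellum. Sv2a differed by -0.62 in spinal cord and -0.17 in brainstem/cerebellum. At the probes used, the 3 genes were thus lower in Tg in each tissue, with the wider gap in spinal cord. A dim second probe of Sv2b went the other way in brainstem/cerebellum, at a difference of 1.099. In spinal cord that probe was above background in Tg and not in WT. The Sv2c probe used names an Ensembl transcript alone. Dim probes of Sv2c that name a RefSeq transcript gave 0.10 and -0.64 in spinal cord and -0.62 and -0.88 in brainstem/cerebellum, in the same order. Synpr (synaptoporin), a relative of synaptophysin, stood at 0.58 in Tg and 0.86 in WT spinal cord and at 1.82 in Tg and 1.72 in WT brainstem/cerebellum.

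Syngr1, which encodes the vesicle membrane protein synaptogyrin 1, stood apart from all others. Its brighter probe had a level of 4.31 in Tg and 2.21 in WT spinal cord, a difference of 2.10 or 4.28-fold higher, and of 2.64 in Tg and 1.95 in WT brainstem/cerebellum. The other probe gave 0.63 in Tg and 1.75 in WT spinal cord, a difference of -1.12, and 2.20 in Tg and 2.47 in WT brainstem/cerebellum. The probes thus pointed in opposite directions in both tissues, each by more in spinal cord. They name different RefSeq transcripts and lie at separate places on chromosome 15, as shown by the first 30 bases of each probe, on the plus strand of mm9 (chr15:79943781-79943840 for the brighter and chr15:79949191-79949250 for the dimmer).
Syngr1, NM_009303: ctatggctcaccattggctagctcatgcag
Syngr1, NM_207708: agagatcctttgagagaatcctatttcatc
The brighter probe is so by its mean over the 4 arrays, which includes its high level in Tg spinal cord. In WT brainstem/cerebellum the other probe was brighter, at 2.47 against 1.95. Which of the probes follows the sum of the gene's transcripts was not tested, and the direction given for Syngr1 holds for the brighter probe alone.

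The 3 vesicular glutamate transporters mark different glutamate neurons. Slc17a6 (VGLUT2) serves many neurons of brainstem and spinal cord and stood at 2.23 in Tg and 2.90 in WT spinal cord and at 2.46 in Tg and 2.86 in WT brainstem/cerebellum. Slc17a8 (VGLUT3), found in smaller groups of neurons, stood at -1.84 in Tg and -0.40 in WT spinal cord, 2.72-fold lower in Tg, and at -1.496 in Tg and -1.18 in WT brainstem/cerebellum. WT spinal cord was again the highest of the arrays and Tg spinal cord the lowest for Slc17a8. Slc17a7 (VGLUT1), the transporter of cerebellar granule cells, stood at 0.35 in Tg and 0.28 in WT brainstem/cerebellum. In spinal cord it was not well above background in Tg, with a measured level of -7.59, and close to the lowest detected level in WT, at -5.21. Against the lowest signal counted as above background, the gap between Tg and WT spinal cord is at least 1.06-fold, so its size is not known from these arrays.

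Of the 6 SNARE and complexin genes, 5 were lower in Tg spinal cord, with a median of -0.52, and 5 in Tg brainstem/cerebellum, with a median of -0.22. Vamp1, the synaptobrevin of spinal cord and brainstem neurons, stood at 5.09 in Tg and 5.86 in WT spinal cord and at 5.04 in Tg and 5.47 in WT brainstem/cerebellum. Cplx1, a complexin that binds the assembled SNARE complex, differed by -0.86 in spinal cord and -0.36 in brainstem/cerebellum. Stx1a, a SNARE of the plasma membrane, was among the least different in spinal cord, with -0.16 there and -0.26 in brainstem/cerebellum. Vamp2, the most widespread synaptobrevin, had -0.34 in spinal cord and -0.09 in brainstem/cerebellum.

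Snap25, the SNARE protein anchored in the plasma membrane by palmitoylation, was read by 3 probes of unlike size of difference. The brightest stood at 5.31 in Tg and 6.01 in WT spinal cord and at 5.31 in Tg and 5.497 in WT brainstem/cerebellum. The next stood at 0.99 in Tg and 2.67 in WT spinal cord, a difference of -1.67, and at 2.21 in Tg and 2.50 in WT brainstem/cerebellum. The last names an Ensembl transcript alone and stood at -1.83 in Tg and -1.55 in WT spinal cord and at 0.31 in Tg and -0.08 in WT brainstem/cerebellum. Each probe was lower in Tg spinal cord, by 0.28 to 1.67, and they split in brainstem/cerebellum. The brightest probe opens with a run of CA, shown in capitals in the first 30 bases of each probe (plus strand of mm9, chr2:136607709-136607768, chr2:136595900-136599679, which spans more than the 60 bases of the probe, and chr2:136588586-136588645, in this order).
Snap25, NM_001291056: CACACACACACACACACACAaagtggattt
Snap25, NM_011428: ccctgtaacaagcttaaatccagtgatgct
Snap25, ENSMUST00000125486: tagtcttggtttacgtggataaaaagaagt

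Cplx2 is the other complexin of the list, and its values are uncertain. Both of its probes consist mostly of a short tandem repeat, 58 of 60 bases in one and 44 of 60 in the other. The array design places them on chromosomes 13 and 19, that is, on different chromosomes for 1 gene, and the first of them also lists transcripts of Emp2 and Rab3c. The brighter probe stood at 5.04 in Tg and 4.97 in WT spinal cord and at 5.58 in Tg and 5.25 in WT brainstem/cerebellum, so the arrays lay close together. Of the 81 probes, 3 (3.7%) held a tandem repeat of at least 20 bases (a unit of up to 6 bases, repeated), against 0.325% of all 56605 probes.

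Of the calcium sensors, 5 of 7 were lower in Tg spinal cord, with a median of -0.41, and 5 of 7 lower in Tg brainstem/cerebellum with a median of -0.16. Syt7, a slow sensor of high calcium affinity that serves facilitation and asynchronous release, had the lowest difference of the 37 genes measured on both spinal cord arrays. It stood at -3.52 in Tg and -1.61 in WT spinal cord, a difference of -1.91 or 3.75-fold lower, and at -1.52 in Tg and -1.21 in WT brainstem/cerebellum. Tg spinal cord lay far below the other 3 arrays, which were close together. Among all named genes, 0.819% had a lower difference in spinal cord than Syt7. With normexp and quantile normalization its difference shrank to -1.227, and Slc17a8 was then lower, at -1.234.

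The fast sensors of synchronous release, Syt1 and Syt2, differed less. Syt1 stood at 2.54 in Tg and 2.95 in WT spinal cord and at 4.03 in Tg and 3.99 in WT brainstem/cerebellum. Syt2, the form of caudal brain regions, stood at -0.50 in Tg and 0.39 in WT spinal cord and at -0.02 in Tg and 0.16 in WT brainstem/cerebellum. At the probes used, both were lowest on the Tg spinal cord array. The other probes of Syt2 gave -1.14 and -0.59 in spinal cord, and those of Syt1, which name Ensembl transcripts alone, gave 0.26 and -0.25. Syt3, a further calcium-binding synaptotagmin, stood at 1.09 in Tg and 1.96 in WT spinal cord and at 1.58 in Tg and 2.04 in WT brainstem/cerebellum.

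Doc2b, a soluble sensor with C2 domains, stood at -1.60 in Tg and -1.23 in WT spinal cord and at 1.06 in Tg and 1.22 in WT brainstem/cerebellum. Syt4 and Syt11, synaptotagmins that do not act as fast calcium triggers, did not share the shift. Syt4 stood 0.35 higher in Tg spinal cord and 0.18 higher in Tg brainstem/cerebellum, and Syt11 differed by 0.01 and -0.16 in the same order. With scaling on the spike-in probes, which lowers every gene of Tg spinal cord relative to WT, Syt4, Syt11 and Cplx2 turned to below 0 in spinal cord, and Syngr1 alone stayed above. With median scaling Syt11 did so too.

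Of the active zone genes, 9 of 9 were lower in Tg spinal cord at the probes used, between -0.93 and -0.23, with a median of -0.63. At these probes, 9 of 9 remained below 0 with each of the 7 normalizations run, while other probes of Unc13a and Erc2 were above 0. In Tg brainstem/cerebellum 6 of 9 were lower, with a median of -0.12. Unc13a (Munc13-1), the main priming factor, stood at -3.48 in Tg and -2.55 in WT spinal cord and at -2.70 in Tg and -2.29 in WT brainstem/cerebellum. This probe names only an Ensembl transcript, as does a second dim probe of Unc13a, which gave 0.17 in spinal cord and 0.29 in brainstem/cerebellum. The probe of Unc13a that names a RefSeq transcript was not above background on either Tg array. Unc13c, a relative that cerebellar granule cells use, differed by -0.34 in spinal cord and -0.27 in brainstem/cerebellum.

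The RIM scaffolds, which tether calcium channels near docked vesicles, had opposite signs in the 2 tissues at the probes used. Rims1 stood at -3.26 in Tg and -2.35 in WT spinal cord, a difference of -0.92, and at -1.85 in Tg and -2.12 in WT brainstem/cerebellum, a difference of 0.27. Rims2 stood at -0.64 in Tg and 0.04 in WT spinal cord and at 0.89 in Tg and 0.75 in WT brainstem/cerebellum. For both, Tg was lower in spinal cord and slightly higher in brainstem/cerebellum, where Rims2 turned to below 0 with median scaling. A second Rims1 probe above background on all 4 arrays gave -1.04 in spinal cord and 0.27 in brainstem/cerebellum. A further probe, named for a clone, was not well above background in Tg spinal cord and gave -0.72 in brainstem/cerebellum, so the sign there differed between probes.

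Bsn and Pclo, the giant scaffolds bassoon and piccolo, differed by -0.42 and -0.23 in spinal cord and by -0.04 and 0.01 in brainstem/cerebellum. The vesicle GTPase genes Rab3a and Rab3c differed by -0.75 and -0.63 in spinal cord and by -0.12 and -0.41 in brainstem/cerebellum. The Rab3c probe had a level of 2.77 in Tg and 3.40 in WT spinal cord and of 3.36 in Tg and 3.78 in WT brainstem/cerebellum. Erc2, a scaffold that binds RIM and bassoon, had -0.48 and -0.15 in spinal cord and brainstem/cerebellum. Its dimmer probes were above 0 in spinal cord, at 0.14 for the same RefSeq transcript and 0.09 for a clone. In brainstem/cerebellum they gave 0.08 and -0.07.

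The 3 endocytosis genes were lower in Tg in both tissues, with medians of -0.84 in spinal cord and -0.23 in brainstem/cerebellum. Dnm1, the GTPase that cuts vesicles from the membrane, stood at 5.32 in Tg and 6.26 in WT spinal cord, a difference of -0.94, and at 6.23 in Tg and 6.37 in WT brainstem/cerebellum. Its second probe, for another RefSeq transcript, gave -1.05 in spinal cord and -0.21 in brainstem/cerebellum. Snap91 (AP180), which recruits clathrin, differed by -0.84 in spinal cord and Amph (amphiphysin), which recruits dynamin, by -0.52.

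Several of these statements rest on 1 probe of a gene, so the probes were also set side by side. Of all 81 probes, 66 were above background on both spinal cord arrays, and 55 of them were lower in Tg, with a median of -0.62. Among probes that name a RefSeq mRNA, 45 of 52 were lower, with a median of -0.67, and 11 were at least 2-fold lower. Among probes that name an Ensembl transcript or a clone alone, 10 of 14 were lower, with a median of -0.22 and none past 2-fold. Of all named genes, each read by 1 probe, 53.7% were lower in Tg spinal cord and 6.32% at least 2-fold lower. Shares over all probes of the array were not computed. Of 19 genes with at least 2 probes above background there, 13 had all of these probes on the same side of 0, as did 9 of 22 in brainstem/cerebellum, where the differences were small.

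**Figure D3:**
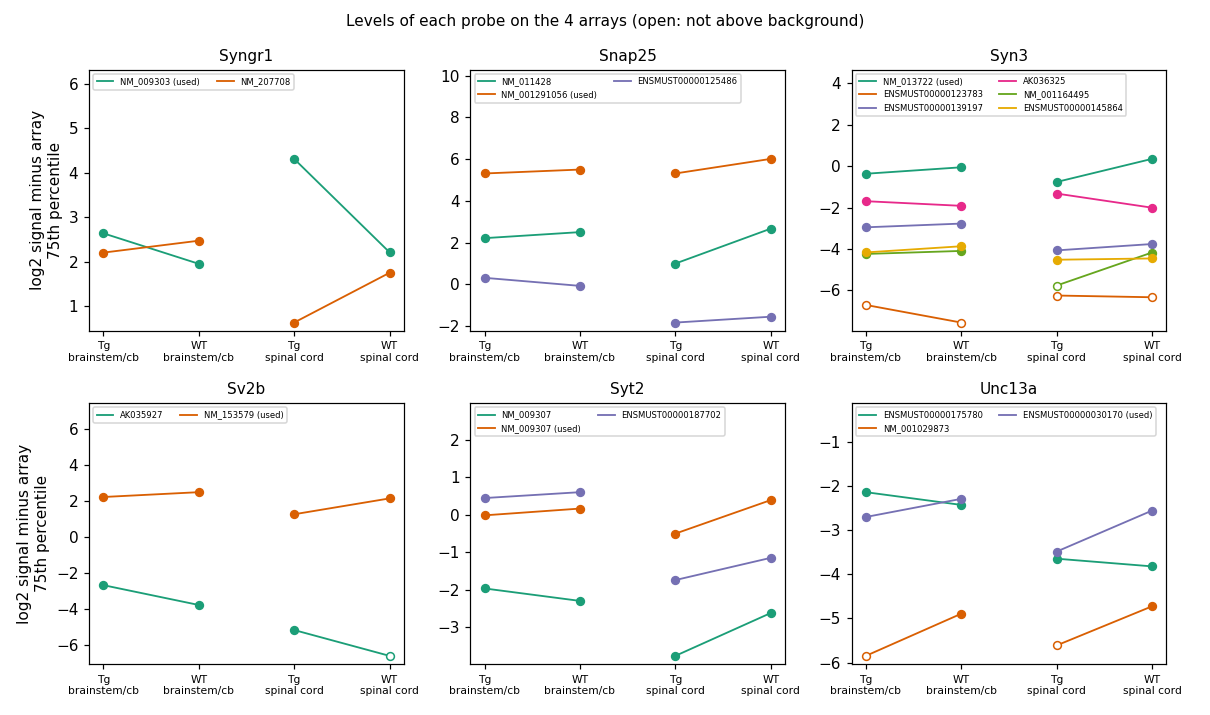
Levels (vertical axis, log2 signal minus the array's 75th percentile) of each probe of 6 genes whose probes disagreed, on the Tg and WT arrays of brainstem/cerebellum and spinal cord, with 1 line per probe and tissue, open points for values not above background and the transcript each probe names. The lines of the Syngr1 probes slope in opposite directions in both tissues and cross in brainstem/cerebellum only. Those of Snap25 slope the same way in spinal cord, by 0.28 to 1.67.

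The next comparison asks whether the genotype difference was alike in both tissues. It was more negative in spinal cord for 33 of the 37 genes measured on all arrays, and the median of the difference of differences, spinal cord minus brainstem/cerebellum, was -0.41. Syngr1, Stx1a, Syt4 and Syt11 were the exceptions. Over 15716 named genes the same median was 0.01, and 49.0% were below 0. The furthest were Syt7 (-1.59), Rims1 (-1.19) and Slc17a8 (-1.13), with Syngr1 at 1.41 on the other side. Seen array by array, 29 of the 37 genes had their lowest level on the Tg spinal cord array, as did 37.8% of all named genes. No test of this difference was possible, and the WT spinal cord array with its own slide enters each of these values.

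Genes outside the 38 give the setting of these values. A further 59 presynaptic genes, such as the vesicular monoamine transporter Slc18a2 (-1.51 in spinal cord), Syt6 (-1.34), the endophilin gene Sh3gl2 (-1.21) and Rab3d (1.38), had a median of -0.51 in spinal cord and -0.11 in brainstem/cerebellum. Of these, 45 of 57 measured genes were lower in Tg spinal cord, 5 of them and 2 higher ones past 2-fold. Postsynaptic genes were lower in Tg spinal cord for 19 of 21, with a median of -0.55, among them Nlgn1 (-1.11), and had a median of -0.05 in brainstem/cerebellum. Other neuronal genes, listed apart from the synaptic ones, had a median of -0.58 in spinal cord, with 17 of 19 lower. The neurofilament genes Nefh (-1.41), Nefm (-1.35) and Nefl (-1.15) led them. In brainstem/cerebellum the median of this list was -0.21. The shift of the release genes thus lay close to that of other neuronal genes, and a difference between these lists was not tested.

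Markers of neuron types and of other cells differed as well. The median of motor and cholinergic neuron genes was -0.99 in spinal cord and -0.68 in brainstem/cerebellum, with Chodl at -2.04 and -1.55. Of the 10 genes, those above background on both arrays were lower in Tg for 9 of 9 in spinal cord and 7 of 8 in brainstem/cerebellum. Prph (-0.09) and Chat (-0.12) differed little in spinal cord, and Chat was slightly higher in Tg brainstem/cerebellum (0.03). Genes of inhibitory neurons had -0.63 in spinal cord and -0.49 in brainstem/cerebellum, and all 6 were lower in both, with the glycine transporter gene Slc6a5 at -1.43 in spinal cord. Granule and Purkinje cell genes had medians of 0.01 and 0.02 in brainstem/cerebellum, the tissue that holds these cells.

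Most microglia and macrophage genes differed the other way. Their summed signal, in multiples of the array's 75th percentile, was 512.1 in Tg and 130.8 in WT spinal cord and 174.9 in Tg and 80.8 in WT brainstem/cerebellum, with 14 of 14 genes above background on each array. The sum over the 38 release genes was 431.4 in Tg and 623.0 in WT spinal cord and 566.8 in Tg and 633.9 in WT brainstem/cerebellum. Among microglial genes, 12 of 14 were at least 2-fold higher in Tg spinal cord and 10 of 14 in Tg brainstem/cerebellum, with Cd68 at 3.73 and 1.85 and C1qa at 3.40 and 1.998. The remaining 2 were lower in Tg spinal cord, Ptprc at -0.85 and Itgam at -0.28. In brainstem/cerebellum Ptprc was lower in Tg (-0.49) and Itgam slightly higher (0.13). Whether the added RNA of these cells has a part in the lower levels of neuronal genes was not tested.

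Markers of neighbouring tissue and of other glia gave a mixed picture. The spinal cord median of skeletal muscle genes was -0.86, with summed signals of 3.21 in Tg and 5.16 in WT and 9 of 10 genes above background in Tg against 10 in WT. Schwann cell genes had a median of -0.10 there and summed signals of 38.1 in Tg and 44.1 in WT, with Prx at -1.74 and Egr2 at 2.09. Oligodendrocyte genes had medians of 0.18 in spinal cord and 0.05 in brainstem/cerebellum, and endothelial genes of -0.10 and -0.03. Astrocyte genes had medians of -0.0013 and 0.21 but were split in spinal cord. There 2 of 10 were at least 2-fold higher in Tg, beside 8.52% of all named genes, and 3 lower, beside 6.32%. Gfap and Sox9 each had 1.08, Gja1 -1.81 and Gjb6 -1.19. In brainstem/cerebellum 2 of 10 were at least 2-fold higher, Gja1 (1.97) and Gfap (1.44), beside 2.74%. The part of nerve root or muscle in the result was not tested.

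**Figure D4:**
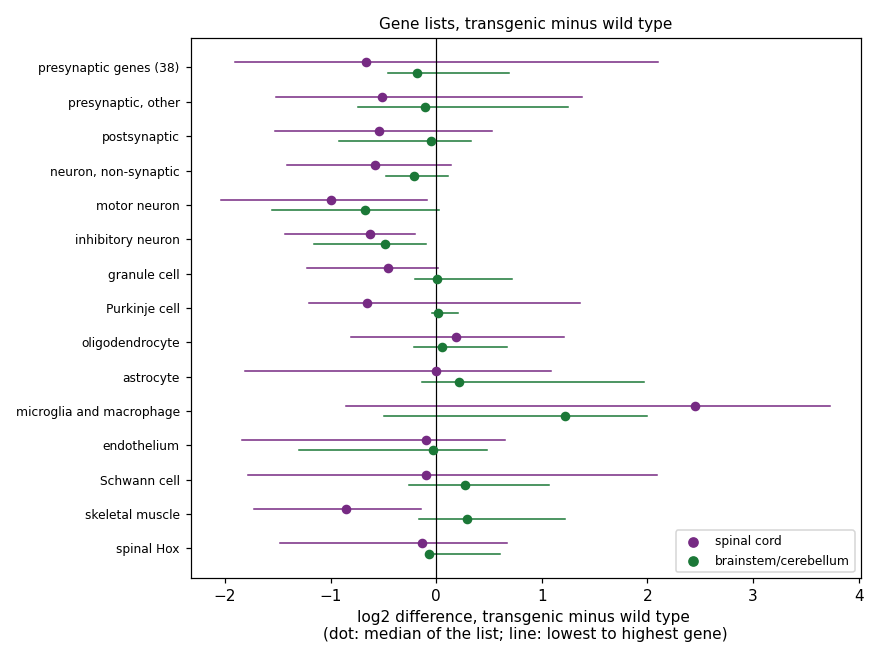
Median (dot) and range (line) of the log2 difference between Tg and WT over the genes of each list, in spinal cord (purple) and brainstem/cerebellum (green), for genes above background on both arrays. The release genes, the other presynaptic, postsynaptic and neuronal lists have spinal cord medians between -0.66 and -0.51, and microglia and macrophage genes stand at 2.45.

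The last comparison sets spinal cord against brainstem/cerebellum within a genotype. In Tg mice, release genes were lower in spinal cord for 31 of 37 genes, with a median of -0.60, against -0.02 for all named genes, of which 51.2% were lower. In WT mice, 25 of 38 genes were lower in spinal cord, with a median of -0.27, against -0.02 for all named genes, of which 51.4% were lower. In Tg mice 7 of 37 genes were at least 2-fold lower, beside 6.14% of all named genes. Slc17a7, not above background in Tg spinal cord, is left out of the Tg counts. With its gap taken against the lowest signal counted as above background, 8 genes were 2-fold lower. The share of all named genes was not computed that way. Syngr1 was higher at the probe used (-1.57 at its other probe), beside 10.2%. In WT mice 4 genes were at least 2-fold lower (Slc17a7, Doc2b, Bsn and Syt1), beside 4.16% of all named genes, and none higher, beside 6.67%. Syt1 fell short of 2-fold in WT mice with spike-in scaling (-0.98) and with normexp (-0.998). At 1.5-fold, 20 genes were lower in Tg mice, beside 14.5% of all named genes, and in WT mice 10 were lower, beside 11%, and 2 higher, beside 15.7%.

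The widest gap belonged to Slc17a7, the transporter of granule cells, which was at least 50.2-fold lower in spinal cord than in brainstem/cerebellum of Tg mice and 45.2-fold lower in WT mice. The WT value rests on a spinal cord signal near background: its log2 difference was -5.498 as reported and -3.22 with normexp and quantile normalization. Doc2b was 6.32-fold lower in spinal cord in Tg mice and 5.45-fold lower in WT mice. Bsn differed by -1.63 in Tg mice, with 0.84 in spinal cord and 2.47 in brainstem/cerebellum, and by -1.24 in WT mice, with 1.27 in spinal cord and 2.51 in brainstem/cerebellum. Syt1 differed by -1.49 in Tg and -1.04 in WT mice and Synpr by -1.24 in Tg and -0.85 in WT mice. These genes had the same order of tissues in both genotypes.

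Sv2c was the member with the highest spinal cord level relative to brainstem/cerebellum in WT mice, at 0.85, and had 0.25 in Tg mice. A gap past 2-fold appeared in Tg mice for Syt7 (-1.995 in Tg, -0.40 in WT), Rims2 (-1.53 in Tg, -0.71 in WT) and Rims1 (-1.41 in Tg, -0.23 in WT) at the probe used. Here probes of a gene again differed. Other Rims1 probes were past 2-fold lower in WT mice too, with -1.72 at the second RefSeq probe and -1.23 at that of the clone. Snap25 stood level in Tg (5.31 on both arrays) and at 0.51 in WT mice at its brightest probe and -2.14 in Tg and -1.48 in WT mice at the probe of the Ensembl transcript, and Syt2 had -0.49 in Tg and 0.23 in WT at the probe used and -2.18 in Tg and -1.75 in WT at the one named for an Ensembl transcript. Probes that name only an Ensembl transcript or a clone had medians of -1.49 in Tg and -0.99 in WT mice, and RefSeq probes -0.71 in Tg and -0.28 in WT mice. The comparisons share arrays, so the values of one are not independent of another.

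**Figure D5:**
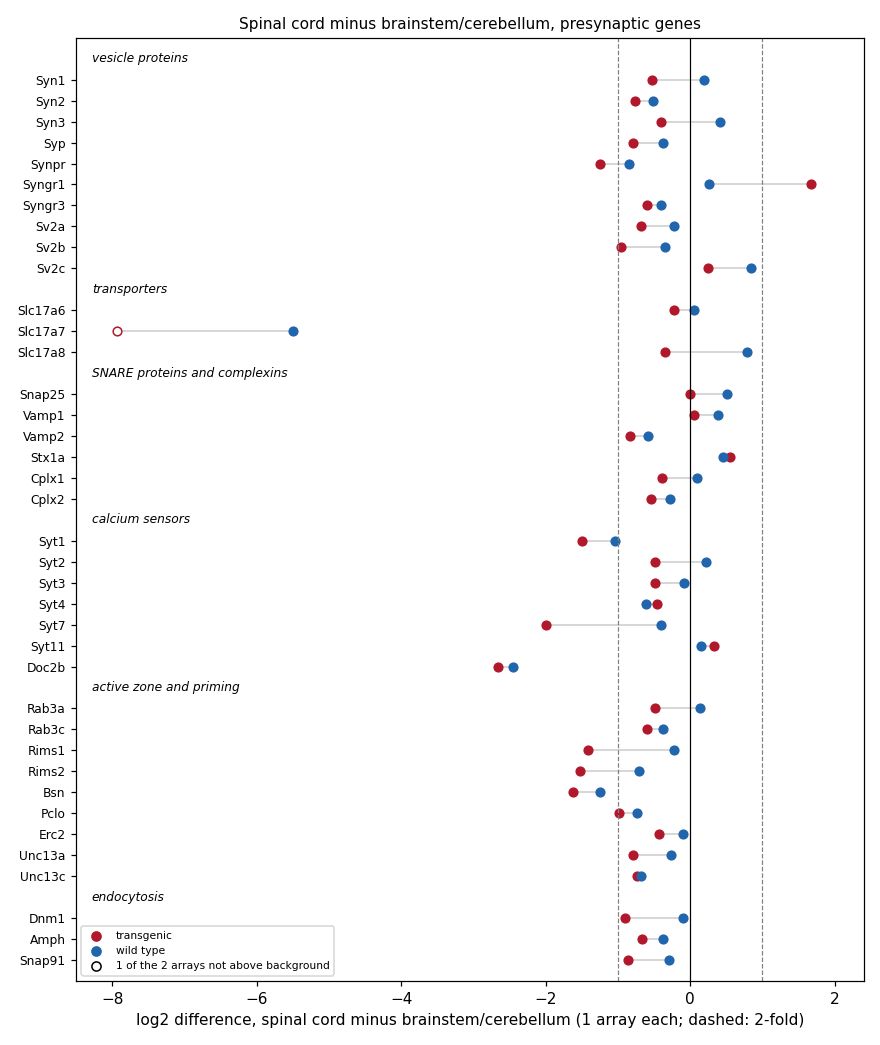
Difference between spinal cord and brainstem/cerebellum for each of the 38 genes, on the log2 scale (horizontal axis), in Tg (red) and WT (blue) mice, with 1 array behind each value and dashed lines at 2-fold. Slc17a7 lies far left at -5.498 in WT mice, with the open point not above background in Tg spinal cord, and most red points lie left of the blue ones.

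Promoter sequence was examined because most members shifted together. RefSeq promoters of GRCm38.p6 were matched to 30 of the 38 genes, over the 250 bases before the start, and 6 motifs were sought on both strands and compared with 27025 genes. GGGGCGGGG (a GC box) was found in 8 of 30 promoters (26.7%), against 11.8% of all genes, and the NRF1 motif in 3 of 30, against 4.23%. TATAAA was found in 1 (Sv2b; 14.3% of all genes hold it) and CCAAT in 9 of 30 (37.5% of all genes hold it). TGACGTCA (CRE) and TTCAGCACC (the left end of the RE1 element, which binds the neuronal repressor REST) were found in 1 each, against 1.77% and 0.348% of all genes, in both cases Syn1. GC boxes and NRF1 motifs can overlap in GC-rich sequence. The Syn1 promoter (chrX:20920919-20921168, minus strand) is shown with both motifs in capitals, the RE1 end from -232 to -224 and the CRE from -159 to -152 relative to the start.
Syn1: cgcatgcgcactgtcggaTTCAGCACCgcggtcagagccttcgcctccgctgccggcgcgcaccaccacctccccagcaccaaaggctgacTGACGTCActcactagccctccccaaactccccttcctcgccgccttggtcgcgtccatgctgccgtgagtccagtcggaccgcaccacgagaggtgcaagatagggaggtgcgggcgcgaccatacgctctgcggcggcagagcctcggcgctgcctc
A match is a description of letters and no site of binding was measured here.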

How the data were processed

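The scanner files hold spot intensity on a linear scale, which the authors deposited as made by Agilent Feature Extraction, version 9.5.1.1 per the submitters' processing notes and 10.7.1.1 per the headers. Per the file headers, processed intensity was background-subtracted and detrended within each array and not scaled between arrays, and probe coordinates are in mm9. The authors' deposited series table also holds intensity values. These matched quantile-normalized signals computed here (Pearson correlation 0.99999 over probes), so they served as an alternative.

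Levels are log2 processed signals less the 75th percentile of the array (Python 3.11.15, pandas 2.3.3). Control and outlier-flagged spots were left out and spots of a probe averaged. Of 59305 spots that were not controls, 59.2% to 64% were well above background, and none was saturated. A comparison took the genes with a probe well above background on each of its arrays. A gene dim on 1 array got a bound, set by the lowest level among probes above background there. Groups came from the sample titles. Calls were made at 2-fold with no test, since 1 array per group leaves no spread, and the number of arrays limits the precision. The calling step was tested on simulated data.

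The alternatives were 6 other normalizations (limma 3.58.1, R 4.3.3; normexp with an offset of 50 in 1 of them), 2 other detection filters, probe means per gene, a 1.5-fold threshold and means in place of medians. Leaving out probes with a tandem repeat was added after seeing the data. The members and the 14 gene lists were chosen with earlier results of these data known. Values on all arrays are given for the 6 largest differences in each comparison, the 5 largest differences of differences, genes past 2-fold between genotypes, genes whose probes disagree and genes below background, with up to 3 further examples per role and 4 per list. Some of the list genes and probe sequences are not reported here.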

Additional observations from a re-analysis of the deposited data

Results flagged for a closer look

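In 6 of 37 genes (16.2%) the genotype difference had opposite signs in the tissues, as in 32.7% of all named genes, each value resting on 1 array a group. In spinal cord Tg was lower and in brainstem/cerebellum higher for Synpr (-0.29 and 0.10), Syt1 (-0.41 and 0.0435), Rims1 (-0.92 and 0.27), Rims2 (-0.69 and 0.13) and Pclo (-0.23 and 0.0149). Syt11 had 0.0139 in spinal cord and -0.16 in brainstem/cerebellum. Values as small as those of Syt1 and Pclo in brainstem/cerebellum and of Syt11 in spinal cord lie within the SD of a difference between repeated spots, which was 0.091 to 0.098 at these levels. With median scaling Synpr, Syt1, Rims2 and Pclo were below 0 in brainstem/cerebellum too, and Syt11 below 0 in spinal cord. A second RefSeq probe of Pclo, about as bright, was below 0 in both tissues (-0.73 in spinal cord and -0.37 in brainstem/cerebellum). Other probes of Syt1 (0.47 and 0.67) and Synpr (0.94), which name Ensembl transcripts alone, were above 0 in brainstem/cerebellum. In spinal cord those of Syt1 gave 0.26 and -0.25, in the same order, and that of Synpr was not above background. The difference between tissues was not tested.

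In 7 of 37 genes (18.9%) the tissue difference had opposite signs in the genotypes, as in 30.2% of all named genes, each below 0 in Tg mice (lower in spinal cord) and above 0 in WT mice (higher in spinal cord). The values were -0.53 in Tg and 0.20 in WT mice for Syn1, -0.40 in Tg and 0.41 in WT for Syn3, and -0.22 in Tg and 0.0479 in WT for Slc17a6. They were -0.35 in Tg and 0.78 in WT mice for Slc17a8 and -0.39 in Tg and 0.10 in WT for Cplx1. Syt2 had -0.49 in Tg and 0.23 in WT mice and Rab3a -0.49 in Tg and 0.14 in WT mice. With median scaling Slc17a6 and Cplx1 were below 0 in WT mice too. Cplx1 and Rab3a were so with quantile normalization, with normexp and with the deposited values. Other probes of Rab3a (-0.57) and Syt2 (-0.32 and -1.75) were also below 0 in WT mice. So were those of Syn3 above background on both WT arrays (-0.99, -0.09, -0.08 and -0.59). The difference between genotypes was not tested, and the WT spinal cord array, alone on its slide, enters each WT value.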

How the results depend on the processing

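Among medians and counts over the members, 121 of 143 alternative values stayed close to those reported, and 22 moved; among single genes, 231 of 299 stayed, 64 moved and 4 reversed. The median over all genes moved by the choice of scaling. It was -0.41 in spinal cord and -0.36 between tissues in Tg mice with spike-in scaling, and -0.24 in brainstem/cerebellum with median scaling. The members' median minus that of all genes in spinal cord was -0.61 as reported. Median and spike-in scaling cannot change this gap, because each, like the reported scaling, subtracts 1 constant per array. Quantile normalization gave a gap of -0.56, cyclic loess -0.55 and normexp -0.49. The deposited values, which nearly repeat quantile normalization, gave -0.56. The genotype median in spinal cord was -1.02 with spike-in scaling (19 members 2-fold lower), -0.54 with cyclic loess, -0.51 with normexp, -0.49 with the mean of a gene's probes (0 members 2-fold higher) and -0.56 as a mean over members. In brainstem/cerebellum it was -0.36 with median scaling. The median difference of differences was -0.29 with median scaling and -0.81 with spike-in scaling. The tissue median in Tg mice was -0.94 with spike-in scaling (18 members 2-fold lower) and -0.78 with the mean of probes (13 lower, 0 higher). In WT mice it was -0.39 with median scaling and -0.38 as a mean. The share of all named genes past 2-fold was not computed with spike-in scaling or with the mean of probes. At 1.5-fold, 1 member was higher in Tg brainstem/cerebellum, 21 were lower in Tg spinal cord, 20 were lower in spinal cord of Tg mice, and 10 were lower and 2 higher in spinal cord of WT mice. With the mean of probes, the difference turned to 0.42 for Sv2b and 0.21 for Vamp1 in brainstem/cerebellum, and to -0.27 for Snap25 and -0.61 for Syt2 between tissues in WT mice; these means include dimmer probes. The cause of the other moves was not tested. No paired analysis was possible because each group has 1 array. Signal near background limits Slc17a7 in spinal cord.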
